A study of Mus musculus with 2 samples.

Results

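The genes described here encode the zinc proteases of the matrix metalloproteinase (Mmp), ADAM and ADAMTS families, the ADAMTS-like proteins (Adamtsl) and the tissue inhibitors of metalloproteinases (Timp). They were taken by symbol, as all names in which Mmp, Adam, Adamts, Adamtsl or Timp is followed by a digit, and number 83 of the 32286 features. By family these are 22 Mmp, 33 Adam, 19 Adamts, 5 Adamtsl and 4 Timp genes. A gene is described where the kept cells held at least 50 unique molecular identifiers (UMIs, each standing for 1 captured transcript), and 54 genes reached this. Of the other 29 genes, 11 had no UMI at all. The gene just above the minimum was Adam28 with 61 UMIs, and the gene just below it was Adam32 with 31 UMIs.

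The data are single-cell transcriptomes of mouse marrow stromal cells in 2 libraries. All mice were male and carried both Adipoq-CreERT2 and Ai9. Adipoq-CreERT2 is a recombinase that tamoxifen switches on in cells that transcribe the adiponectin gene, as marrow stromal cells do, and Ai9 is a tdTomato reporter that stays on after recombination. Tamoxifen was given by gavage for 3 days at 8 weeks of age in both groups. Bright tdTomato-positive cells from the endosteal marrow of femur and tibia were sorted 4 weeks later (chase) or 24 h later (pulse), which makes the mice of the chase group older at harvest as well. The sorted cells made up 0.29% of cells in the chase and 0.01% in the pulse sample. There were 4 mice in the series, and how many entered each of the libraries is not stated. Each group has 1 library, so no difference between chase and pulse has a replicate check and no test was possible. All intervals are 95% intervals that cover counting error only.

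Matrix metalloproteinases cut collagens and other proteins outside the cell, and many are secreted as inactive precursors that another protease must activate. ADAM proteases sit in the cell membrane and release the outer parts of receptors and growth factors, while ADAMTS enzymes are secreted and process procollagens and large proteoglycans. TIMPs bind the active site of these enzymes and block it. In bone this system removes collagen at remodelling sites and lets vessels and blood cells pass through the matrix.

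The chase library held 10046 barcodes with 82939659 UMIs, and the pulse library 10608 barcodes with 89009901 UMIs. After filtering, 8445 chase and 9390 pulse cells were kept. Cells were assigned to classes by marker genes, none of which belongs to the protease or TIMP families. Cxcl12-abundant reticular (CAR) cells are the stromal niche cells of marrow. Cells that passed the CAR gate but not the osteogenic gate are called adipogenic CAR-like, with no adipogenic gate of their own. These numbered 3538 in the chase and 3541 in the pulse library. Osteogenic CAR-like cells, which also passed a gate of 6 osteogenic markers such as Alpl, Wif1 and Spp1, numbered 448 in the chase and 590 in the pulse library. Cells that passed the osteogenic gate but not the CAR gate numbered 248 in the chase and 381 in the pulse library, and osteoblast-like cells 349 and 442. Blood and vessel cells were present despite the sort, among them 1038 chase and 1184 pulse macrophage-like cells. Levels are counts per 1000000 UMIs (CPM), from the UMIs of a gene and all UMIs of that class and library. The libraries shared 52 barcodes, of which 20 lay among the kept cells.

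Among the genes taken by symbol, 9 Mmp genes lie in a row on mouse chromosome 9 (GRCm38, 7272514 to 7699585), of which 4 were described here. Mmp13, or collagenase 3, was highest in osteogenic-marker cells below the CAR gate. Its neighbour Mmp12, or macrophage elastase, was highest in macrophage-like cells, and Mmp8, or neutrophil collagenase, in neutrophil-like cells. Mmp27 had 132 UMIs in all, and its highest level lay in neutrophil-like cells of the chase and macrophage-like cells of the pulse library. Because these neighbours led in different classes, the 250 bases before the starts of Mmp13, Mmp12 and Mmp8 are shown, from RefSeq's table for GRCm38.p6, which lists a pair of starts for Mmp12. All are on the forward strand. Capitals mark matches to TGANTCA (the AP-1 site), AACCACA (a Runx site) or TATAAA (the TATA box), searched on both strands.
Mmp13, chr9:7272264-7272513: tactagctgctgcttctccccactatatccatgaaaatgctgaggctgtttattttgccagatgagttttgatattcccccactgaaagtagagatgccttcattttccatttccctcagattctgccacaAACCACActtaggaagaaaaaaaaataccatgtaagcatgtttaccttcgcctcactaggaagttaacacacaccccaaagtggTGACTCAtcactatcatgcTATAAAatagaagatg
Mmp12, chr9:7344147-7344396: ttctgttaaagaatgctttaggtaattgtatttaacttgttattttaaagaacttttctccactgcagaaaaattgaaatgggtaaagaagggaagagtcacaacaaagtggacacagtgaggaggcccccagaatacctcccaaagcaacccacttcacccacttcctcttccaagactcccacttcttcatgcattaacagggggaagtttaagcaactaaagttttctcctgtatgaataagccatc
Mmp12, chr9:7347124-7347373: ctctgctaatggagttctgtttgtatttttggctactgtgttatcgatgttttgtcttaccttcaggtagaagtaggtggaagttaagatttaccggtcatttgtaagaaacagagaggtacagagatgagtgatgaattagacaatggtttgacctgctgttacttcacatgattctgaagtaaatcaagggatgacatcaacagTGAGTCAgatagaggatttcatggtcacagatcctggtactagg
Mmp8, chr9:7558179-7558428: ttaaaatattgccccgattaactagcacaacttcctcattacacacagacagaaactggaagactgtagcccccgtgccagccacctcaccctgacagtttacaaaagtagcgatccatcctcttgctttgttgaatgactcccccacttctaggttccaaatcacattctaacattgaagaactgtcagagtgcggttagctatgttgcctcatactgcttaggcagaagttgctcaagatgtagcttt
The window of Mmp13 held all 3 motifs, with the Runx match beginning 119 bases, the AP-1 match 35 bases and the TATA match 16 bases before the start. Mmp12 held an AP-1 match 44 bases before its second start and no match before the first, and Mmp8 held no match. Over all 32851 promoter windows of this length 6.75% held the AP-1 letters, 4.40% the Runx letters and 12.4% the TATA letters. The 34 described genes with an entry had 38 windows, and a gene is counted where any of its windows held a match. Of these genes 3 held the AP-1 letters (Adam19, Mmp12 and Mmp13) and 2 the Runx letters (Mmp13 and Mmp27). The TATA letters were held by 3 (Adamts1, Adamtsl2 and Mmp13). Such counts of genes are not shares of windows, and they are too few to set these families apart. Only these 3 motifs were searched, so the contrast between Mmp13 and its neighbours depends on that choice. A match describes letters only.

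Over the 12 classes with at least 50 cells in each library, 40 of 54 genes had their highest level in the same class in both libraries. That class was endothelial-like for 10 genes, adipogenic CAR-like for 9 and osteogenic CAR-like for 5. It was the osteogenic-marker cells below the CAR gate for 4, neutrophil-like for 4 and macrophage-like for 3. Osteoblast-like cells led for 2 genes, erythroid-like cells for 2 and T or NK-like cells for 1. The last was Adamts6, at 10.9 CPM in the chase and 26.7 CPM in the pulse library. Some genes led at very low levels, such as Adam28 at 1.17 (chase) and 0.801 (pulse) CPM in adipogenic CAR-like cells. Adam4, counted for endothelial-like cells, shares part of its locus and strand with Cox16, so its counts are uncertain. Osteocyte-like cells, too few in the chase library for this count, held more Adamts14 than the adipogenic CAR-like cells. In the pulse library they also held more Adamtsl2 than the endothelial-like cells. The same count over all genes was not made, so whether these genes differ from others in this is not known. The other 19 described genes, beyond the 35 drawn, did not reach 20 CPM in any class drawn.

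**Figure D1:**
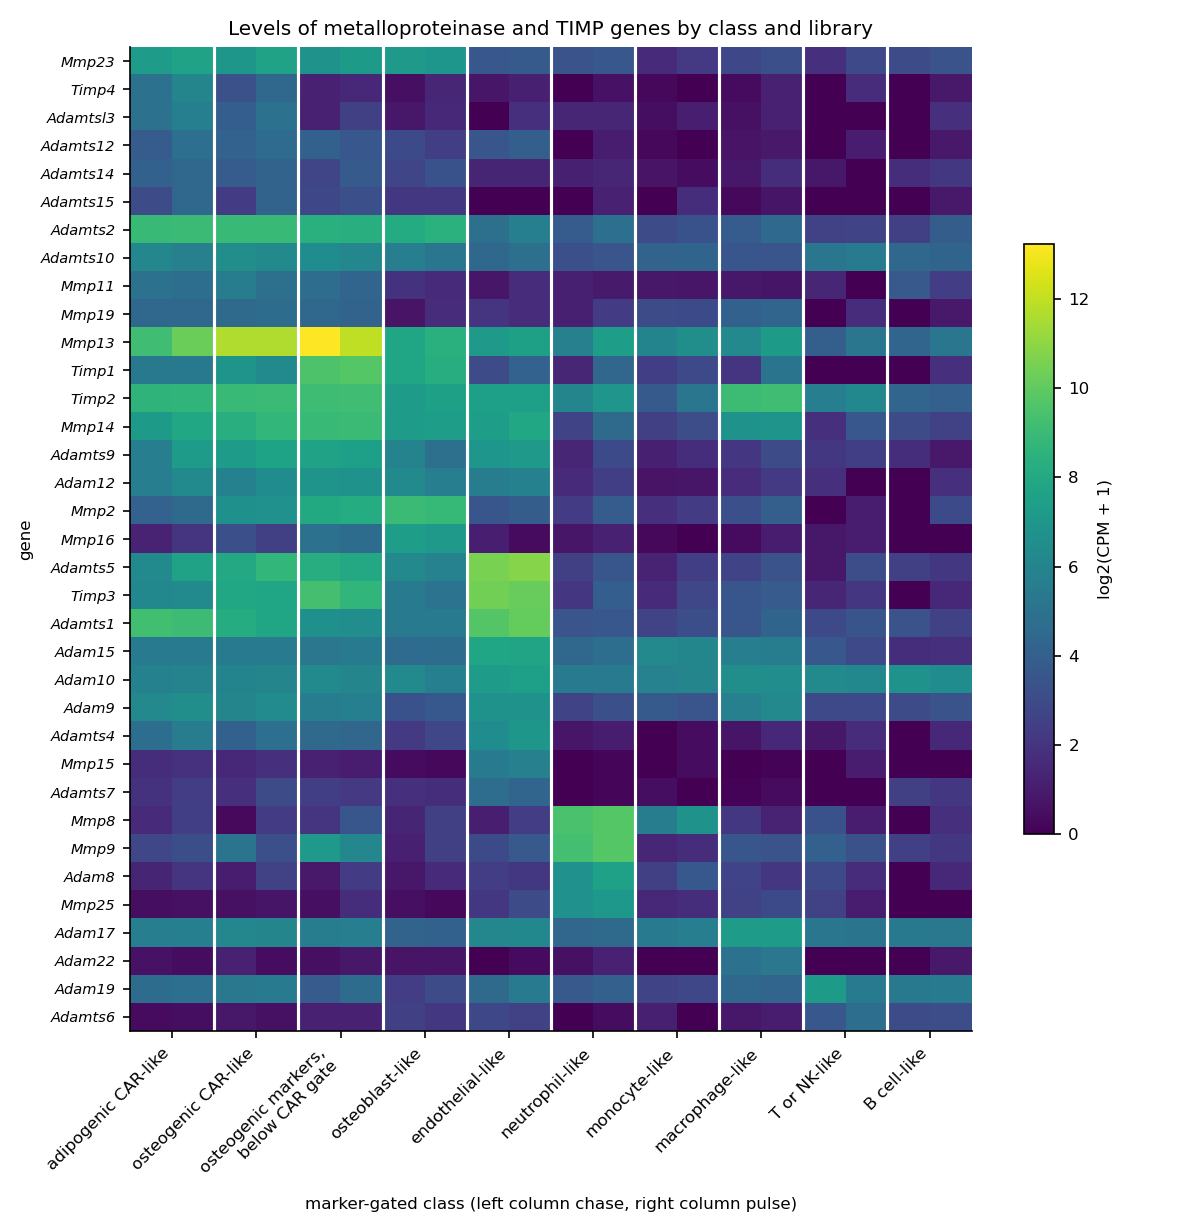
Levels of the 35 described genes with at least 20 CPM in a class, in the 10 classes drawn. Colour gives log2(CPM + 1), rows are genes, and each class has a chase column on the left and a pulse column on the right. Mmp13 and Timp1 are highest in osteogenic-marker cells below the CAR gate, Adamts5 and Timp3 in endothelial-like cells, and Mmp8 and Mmp9 in neutrophil-like cells.

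Among the collagenases, Mmp13 cuts fibrillar collagens and is the main such enzyme of rodent bone cells. In osteogenic-marker cells below the CAR gate it stood at 9641 CPM in the chase library (interval 9512 to 9771) and 4011 CPM in the pulse library (3947 to 4075). In osteogenic CAR-like cells it stood at 3279 CPM in the chase and 3273 CPM in the pulse library. In adipogenic CAR-like cells it stood at 578 CPM in the chase and 1222 CPM in the pulse library. The libraries thus lay close together in osteogenic CAR-like cells and apart, in opposite directions, on either side of them. Osteoblast-like cells held less, with 216 CPM in the chase and 341 CPM in the pulse library. T or NK-like cells, which are not known to make this enzyme, held 15.1 CPM in the chase and 35.6 CPM in the pulse library.

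Shares of cells with a Mmp13 UMI were compared after each cell had been thinned to 2000 UMIs. The share was 90.6% of chase cells (exact binomial interval 86.1 to 94.0) and 75.9% of pulse cells (71.1 to 80.3) below the CAR gate. In osteogenic CAR-like cells it was 79.0% in the chase and 83.2% in the pulse library. In adipogenic CAR-like cells it was 43.7% in the chase (42.0 to 45.4) and 64.3% in the pulse library (62.7 to 65.9). Without thinning, the adipogenic shares were 62.5% in the chase and 83.5% in the pulse library. Thinning left out 244 chase and 120 pulse adipogenic cells as too shallow. Outside the stroma, thinned shares were 2.65% (chase) and 7.17% (pulse) in T or NK-like and 5.97% (chase) and 9.12% (pulse) in neutrophil-like cells. They were 10.6% (chase) and 13.9% (pulse) in macrophage-like and 7.12% (chase) and 14.4% (pulse) in endothelial-like cells. In endothelial-like cells the 32 highest of 316 chase cells held 89.2% of the Mmp13 UMIs, and the 38 highest of 373 pulse cells held 83.0%. The share in osteoblast-like cells, 13.9% in the chase and 14.7% in the pulse library, lay close to the highest of these. This measure could not tell free RNA apart from transcripts of the cells themselves in any of these classes. Median depths were 3852 (chase) and 2592 (pulse) UMIs in T or NK-like cells, and 6559.5 (chase) and 8130 (pulse) UMIs in adipogenic CAR-like cells.

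Within a class, Mmp13 was spread unevenly over cells. Below the CAR gate the median cell had 57.4 Mmp13 UMIs per 10000 in the chase and 19.5 in the pulse library. The highest single cell there held 853 UMIs in the chase and 403 UMIs in the pulse library. In adipogenic CAR-like cells the median was 1.95 per 10000 in the chase and 6.69 in the pulse library. Osteoblast-like cells were the most uneven of these classes. There the 35 highest of 349 chase cells held 93.4% of the Mmp13 UMIs, and the 45 highest of 442 pulse cells held 92.8%.

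CAR-like cells were also binned by osteogenic score, the mean log2 level of the 6 osteogenic markers. From the lowest to the highest of 6 bins, Mmp13 stood at 308, 395, 552, 849, 2702 and 3882 CPM in the chase library. In the pulse library the same bins stood at 521, 802, 1185, 1883, 3119 and 3515 CPM. Mmp13 was thus higher in each further bin of both libraries. The chase library was lower than the pulse library in the 5 lower bins and higher in the highest, which held 208 chase and 226 pulse cells. Timp4, an inhibitor, ran the other way: it stood at 3.30 CPM in the chase and 10.4 CPM in the pulse library in the highest bin, against 40.7 CPM (chase) and 109.7 CPM (pulse) in the lowest. Adamts5, a proteoglycan-cutting enzyme, stood at 305 CPM in the chase and 419 CPM in the pulse library in the highest bin, against 73.0 CPM (chase) and 99.5 CPM (pulse) in the lowest. The bins were chosen after values had been seen.

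**Figure D2:**
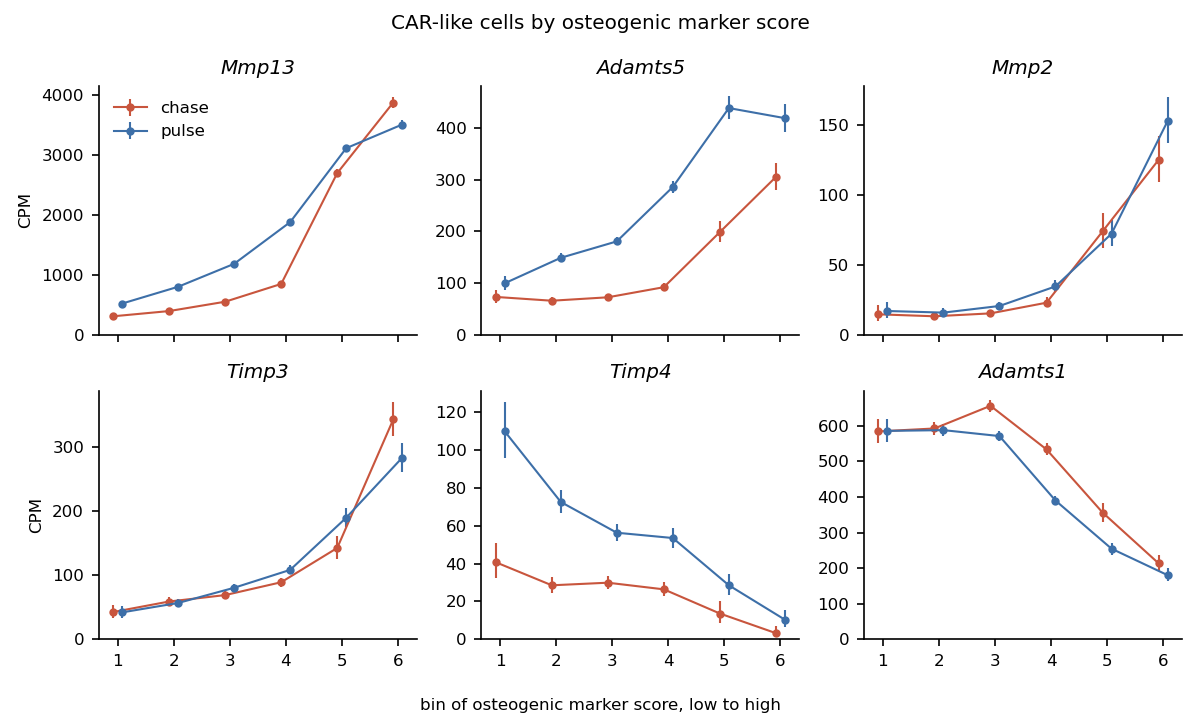
Levels of 6 genes in CAR-like cells by bin of osteogenic marker score, low to high, in CPM on linear axes that start at 0, with chase in red and pulse in blue. Bars are 95% Poisson intervals of the counts. Mmp13 reaches 3882 CPM in the chase and 3515 CPM in the pulse library in the highest bin, where Timp4 is lowest in both libraries.

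The libraries differed most in Mmp13 where CAR markers were few. Among all osteogenic-marker cells ordered by CAR score, the lowest of 5 bins held 15503 CPM in 41 chase cells and 4827 CPM in 66 pulse cells. The next bin held 9536 CPM in 124 chase cells and 3803 CPM in 148 pulse cells. The highest bin held 2655 CPM in 282 chase cells and 2713 CPM in 326 pulse cells. Chase and pulse curves met at the CAR-rich end and parted toward the CAR-poor end. Adamts1 ran in the opposite direction, at 357 CPM (chase) and 274 CPM (pulse) in the highest bin, against 77.6 CPM (chase) and 57.6 CPM (pulse) in the lowest.

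**Figure D3:**
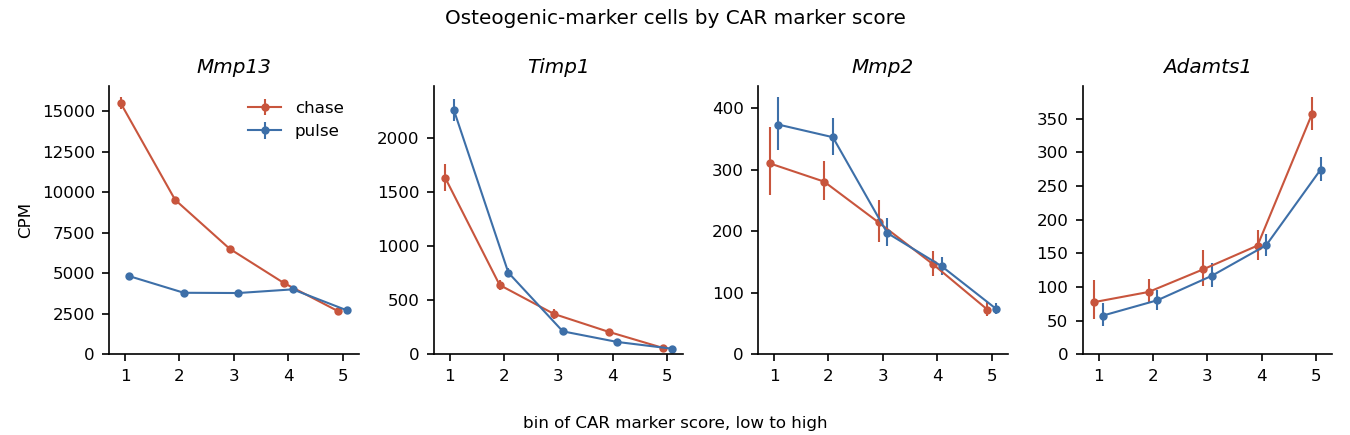
Levels of Mmp13, Timp1, Mmp2 and Adamts1 in osteogenic-marker cells by bin of CAR marker score, low to high, in CPM on linear axes that start at 0, with chase in red and pulse in blue. Bars are 95% Poisson intervals of the counts. In the lowest bin Mmp13 stands at 15503 CPM in the chase and 4827 CPM in the pulse library.

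The other collagenase and elastase genes of this row belonged to blood cells. Mmp8 stood at 685 CPM in the chase and 851 CPM in the pulse library in neutrophil-like cells, where 36.6% of thinned chase and 49.5% of thinned pulse cells had a UMI. In the CAR-like classes, the cells below the CAR gate and the osteoblast-like cells it stood at 10.5 CPM or less. Mmp12 stood at 18.1 CPM in the chase and 2.099 CPM in the pulse library in macrophage-like cells. Its UMIs came from 14 of 1038 chase cells, with up to 99 in a cell, and from 3 of 1184 pulse cells, with up to 17. Its level therefore rests on very few cells in both libraries.

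The gelatinases Mmp2 and Mmp9, which cut denatured and type IV collagen, led in different classes. Mmp2 was highest in osteoblast-like cells, at 513 CPM in the chase (interval 496 to 531) and 473 CPM in the pulse library (459 to 487). It stood at 265 (chase) and 295 (pulse) CPM below the CAR gate, at 99.1 (chase) and 104 (pulse) CPM in osteogenic CAR-like cells and at 16.9 (chase) and 22.8 (pulse) CPM in adipogenic CAR-like cells. Mmp9 stood at 614 CPM in the chase and 865 CPM in the pulse library in neutrophil-like cells. Osteoclast-like cells, named here after their values were seen because osteoclasts are a textbook source of Mmp9, numbered 25 in the chase and 24 in the pulse library and stood at 2175 (chase) and 3641 (pulse) CPM.

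In stromal classes Mmp9 came from few cells. Below the CAR gate it stood at 142 CPM in the chase and 68.1 CPM in the pulse library, from 38 of 248 chase and 28 of 381 pulse cells. A single pulse cell held 194 of 260 UMIs, and a single chase cell 85 of 315. The 6 neutrophil markers summed to 2238 CPM in chase and 9409 CPM in pulse cells with Mmp9, against 312 CPM (chase) and 335 CPM (pulse) in cells without it. In osteogenic CAR-like cells Mmp9 stood at 32.8 CPM in the chase and 8.45 CPM in the pulse library, and a single chase cell held 73 of 122 UMIs. Neutrophil markers in the cells with Mmp9 summed there to 317 CPM in the chase and 11118 CPM in the pulse library. In the cells without Mmp9 they summed to 370 CPM (chase) and 407 CPM (pulse). The part of neutrophil RNA in these levels was not tested.

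Membrane-type enzymes followed the classes as well. Mmp14, which activates Mmp2 together with Timp2 and itself cuts collagen, stood at 479 CPM in the chase and 514 CPM in the pulse library below the CAR gate. It stood at 317 (chase) and 426 (pulse) CPM in osteogenic and 149 (chase) and 247 (pulse) CPM in adipogenic CAR-like cells. Mmp16, another membrane-type enzyme, was highest in osteoblast-like cells, at 163 CPM in the chase and 138 CPM in the pulse library, and stood at 8.32 CPM or less in the CAR-like classes. Mmp15 stood at 44.1 CPM in chase and 53.9 CPM in pulse cells in the endothelial-like class. Mmp25, a membrane-type enzyme of leukocytes, stood at 103 CPM in chase and 131 CPM in pulse cells in the neutrophil-like class.

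Mmp23, Mmp11 and Mmp19 were highest in CAR-like classes. Mmp23 stood at 158 (chase) and 198 (pulse) CPM in adipogenic CAR-like and 140.1 (chase) and 122 (pulse) CPM in osteoblast-like cells. Mmp11, or stromelysin 3, stood at 45.7 (chase) and 28.2 (pulse) CPM in osteogenic and 30.4 (chase) and 26.8 (pulse) CPM in adipogenic CAR-like cells. Mmp19 lay between 20.4 and 24.7 CPM in both CAR-like classes of both libraries, and at 0.640 (chase) and 2.16 (pulse) CPM in osteoblast-like cells. Unlike Mmp2 and Mmp16, these last genes were not highest in osteoblast-like cells by CPM. For Mmp23 this depends on scaling by class totals. With median-of-ratios size factors it was higher in osteoblast-like than in osteogenic CAR-like cells of the pulse library, at a log2 ratio of 0.32.

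The ADAMTS enzymes that cut proteoglycans such as aggrecan and versican included 3 genes with their highest level in endothelial-like cells, Adamts1, Adamts4 and Adamts5. Adamts5 stood at 1542 CPM in the chase and 1802 CPM in the pulse library in endothelial-like cells, and its genomic neighbour Adamts1 at 836 CPM in the chase and 1106 CPM in the pulse library. Both lie on the reverse strand of chromosome 16 (GRCm38), Adamts1 at 85793827 to 85803113 and Adamts5 at 85856173 to 85901828. In CAR-like cells the neighbours differed in direction. Adamts1 stood at 287 (chase) and 226 (pulse) CPM in osteogenic and 599 (chase) and 529 (pulse) CPM in adipogenic CAR-like cells. Adamts5 stood at 251 (chase) and 431 (pulse) CPM in osteogenic and 76.3 (chase) and 194 (pulse) CPM in adipogenic CAR-like cells. After thinning, Adamts5 was seen in 11.99% of chase and 24.8% of pulse adipogenic CAR-like cells, against 0.379% (chase) and 1.89% (pulse) of T or NK-like cells.

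Further enzymes of this role had their own distributions. Adamts9 stood at 199 (chase) and 175 (pulse) CPM below the CAR gate, at 153 (chase) and 205 (pulse) CPM in osteogenic and 50.1 (chase) and 156 (pulse) CPM in adipogenic CAR-like cells. Adamts4 stood in endothelial-like cells at 85.1 CPM in the chase and 129 CPM in the pulse library. Adamts15 stood at 7.29 (chase) and 20.2 (pulse) CPM in adipogenic CAR-like cells.

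The procollagen N-proteinases Adamts2, Adamts3 and Adamts14 remove the amino-terminal part of fibrillar procollagens. Adamts2 was nearly even over the CAR-like classes, at 499 (chase) and 508 (pulse) CPM in osteogenic and 482 (chase) and 519 (pulse) CPM in adipogenic cells, and stood at 279 (chase) and 349 (pulse) CPM in osteoblast-like cells. Adamts14 stood at 162 CPM (115 to 221) in the 15 chase and 216 CPM (187 to 248) in the 53 pulse osteocyte-like cells, a class too small for the count of leading classes. It stood at 16.5 (chase) and 20.7 (pulse) CPM in adipogenic CAR-like cells. Adamts10, an enzyme that binds fibrillin, stood at 91.0 (chase) and 78.0 (pulse) CPM in osteogenic and 69.1 (chase) and 53.4 (pulse) CPM in adipogenic CAR-like cells, and Adamts12 at 13.3 (chase) and 27.9 (pulse) CPM in adipogenic ones.

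ADAMTS-like proteins keep the binding domains of the family and lack the protease domain. Adamtsl3 was highest in adipogenic CAR-like cells, at 30.9 CPM in the chase and 51.1 CPM in the pulse library, and stood at 14.5 (chase) and 30.6 (pulse) CPM in osteogenic CAR-like cells. Adamtsl2 stood at 67.7 CPM in the pulse osteocyte-like cells, from 64 UMIs, and had 1 UMI in the fewer chase cells. Adamtsl1 shares part of its locus and strand with Sh3gl2, so its counts are uncertain.

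The ADAM sheddases were spread more widely. Adam10, which cuts Notch receptors and cadherins, lay between 52.3 and 80.5 CPM in the CAR-like classes, the cells below the CAR gate and the osteoblast-like cells. It was highest in erythroid-like cells, at 179 CPM in the 57 chase and 181 CPM in the 63 pulse cells. Endothelial-like cells came next, at 151 (chase) and 178 (pulse) CPM. Adam17, which releases tumour necrosis factor, was highest in macrophage-like cells, at 151 CPM in the chase and 155 CPM in the pulse library, and stood at 17.6 (chase) and 16.3 (pulse) CPM in osteoblast-like cells. Adam12 stood at 114 (chase) and 107 (pulse) CPM below the CAR gate, at 54.5 (chase) and 85.1 (pulse) CPM in osteogenic and at 48.7 (chase) and 78.2 (pulse) CPM in adipogenic CAR-like cells. Adam9 stood at 75.4 (chase) and 93.7 (pulse) CPM in adipogenic CAR-like cells and 9.11 (chase) and 11.5 (pulse) CPM in osteoblast-like cells. Adam9 and Adam15 were both highest in endothelial-like cells. There Adam9 stood at 105 (chase) and 112 (pulse) CPM and Adam15 at 215 (chase) and 209 (pulse) CPM.

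Several ADAM genes led in blood classes. Adam8, a leukocyte ADAM, stood at 103 CPM in chase and 188 CPM in pulse cells of the neutrophil-like class. Adam22, whose protease domain is inactive, stood at 30.9 CPM in chase and 37.0 CPM in pulse cells of the macrophage-like class. Adam19 did so in the chase library only: it stood at 148 CPM in chase and 42.2 CPM in pulse T or NK-like cells, from 176 chase and 38 pulse UMIs, and in the pulse library endothelial-like cells were highest at 45.1 CPM. Adam33 was highest in erythroid-like cells, from only 21 chase and 9 pulse UMIs.

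The 4 inhibitors each had a different distribution. Timp1 stood at 732 CPM in the chase and 851 CPM in the pulse library below the CAR gate. It stood at 224 (chase) and 301 (pulse) CPM in osteoblast-like cells, at 113 (chase) and 79.8 (pulse) CPM in osteogenic and at 39.9 (chase) and 40.3 (pulse) CPM in adipogenic CAR-like cells. Below the CAR gate 58.7% of its chase UMIs lay in the 25 highest of 248 cells, and 82.7% of its pulse UMIs in the 39 highest of 381. In the lowest bin of CAR score Timp1 stood at 1629 CPM in the chase and 2254 CPM in the pulse library, against 59.8 CPM (chase) and 53.2 CPM (pulse) in the highest. Timp2 was broad, at 490.1 (chase) and 517 (pulse) CPM in osteogenic CAR-like, 387 (chase) and 409.5 (pulse) CPM in adipogenic CAR-like and 537 (chase) and 582 (pulse) CPM in macrophage-like cells. Its reads may be shared with Cep295nl, which overlaps it on the same strand.

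Timp3, which stays bound to the matrix, was highest in endothelial-like cells, at 1363 CPM in the chase and 1155 CPM in the pulse library. It stood at 646 (chase) and 413 (pulse) CPM below the CAR gate, at 241 (chase) and 227 (pulse) CPM in osteogenic and at 70.4 (chase) and 79.1 (pulse) CPM in adipogenic CAR-like cells. Timp4 was highest in adipogenic CAR-like cells, at 29.4 CPM in the chase (27.3 to 31.7) and 63.4 CPM in the pulse library (60.6 to 66.3). It stood at 8.59 (chase) and 21.5 (pulse) CPM in osteogenic CAR-like cells, so Timp3 and Timp4 differed in direction between the CAR-like classes.

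Levels in the chase library were first divided by those in the pulse library, class by class. A gene is called higher or lower where this ratio of CPM was at least 1.5-fold either way, with at least 50 UMIs over both libraries. In adipogenic CAR-like cells 45 of the 54 genes could be measured, of which 1 was higher and 16 were lower in the chase library. Among all genes measured there 7.39% were higher and 6.67% lower. The median log2 ratio was -0.31 for the protease and TIMP genes and -0.02 for all genes. The share of these genes that were lower, 35.6%, thus lay above the share over all genes in this pair of libraries.

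The lower genes in adipogenic CAR-like cells came from several roles. Among the proteoglycan-cutting enzymes Adamts9 had a ratio of 0.321 (interval 0.301 to 0.342), Adamts15 of 0.362, Adamts5 of 0.393 (0.373 to 0.415) and Adamts4 of 0.578. The collagenase Mmp13 had a ratio of 0.473 (0.464 to 0.483) and the membrane-type Mmp14 of 0.605 (0.581 to 0.630). Of the inhibitors, Timp4 had a ratio of 0.464 (0.425 to 0.506), whereas Timp1 at 0.989, Timp2 at 0.946 and Timp3 at 0.889 stayed within the fold. Mmp16, Mmp17, Mmp28, Mmp8, Adam8, Adam12, Adamts12, Adamtsl3 and Adamtsl4 had ratios between 0.463 and 0.633. Mmp8 and Adam8 led in neutrophil-like cells, and the neutrophil markers summed to 610.5 CPM in chase and 964 CPM in pulse adipogenic CAR-like cells, whose part was not tested. The higher gene was Adamts3, with 124 chase and 69 pulse UMIs and a ratio of 2.24 (1.66 to 3.06).

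**Figure D4:**
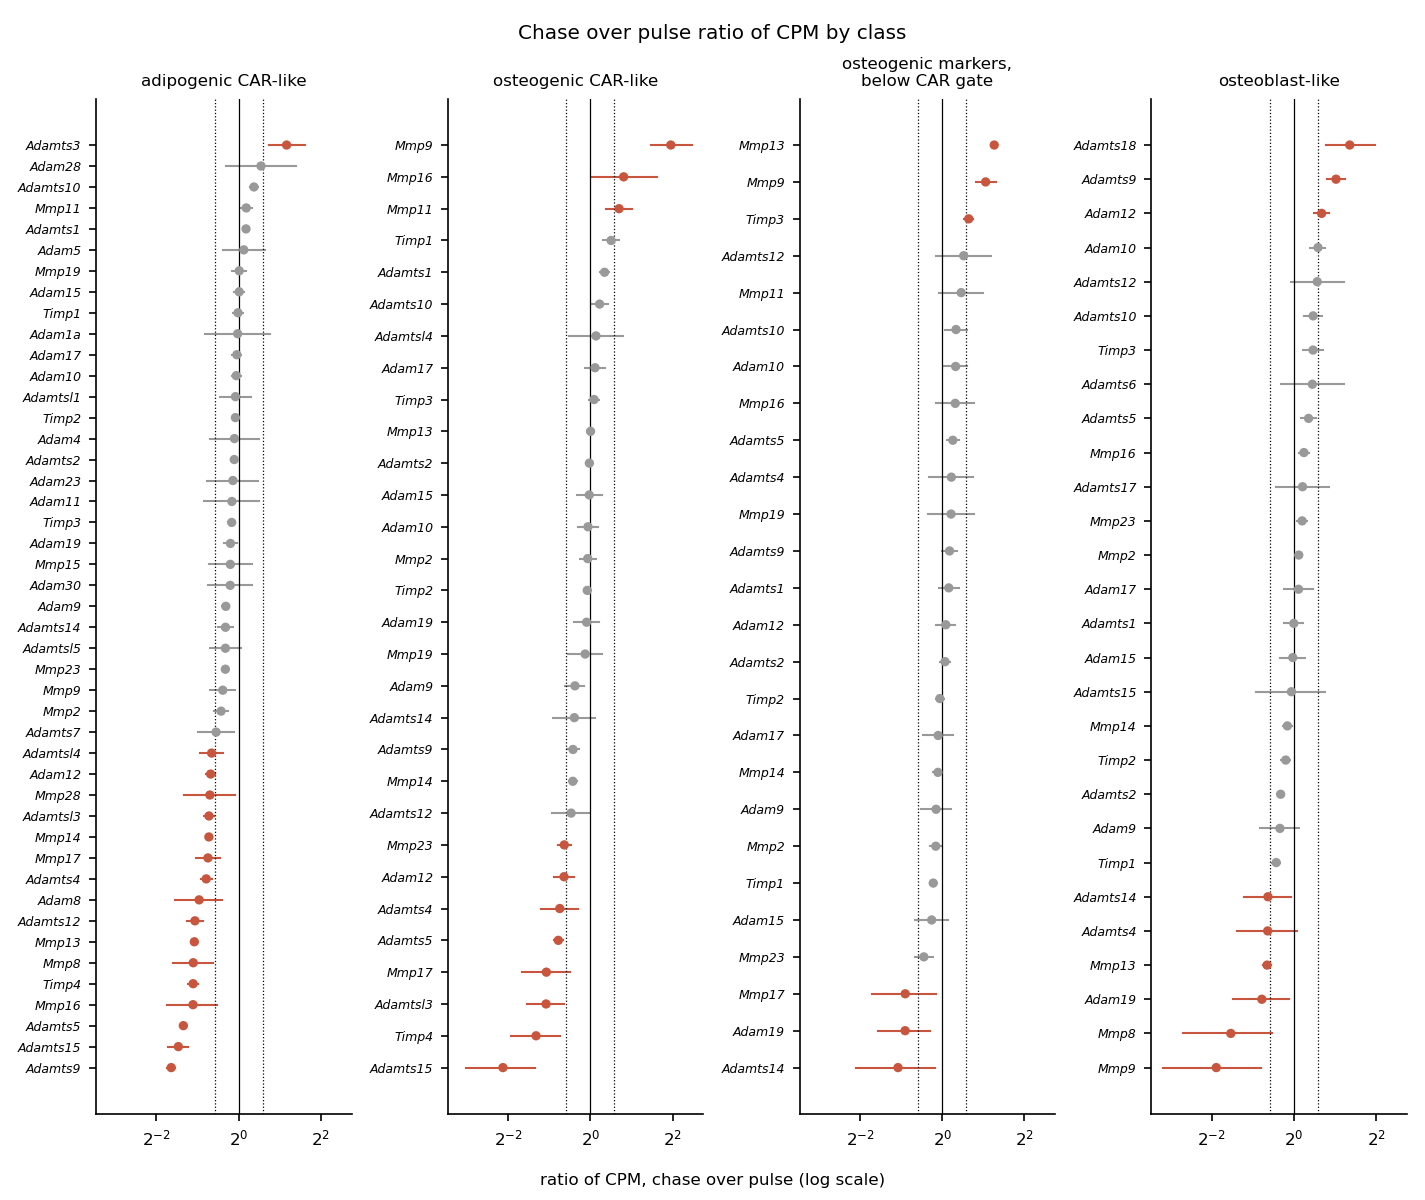
Chase over pulse ratio of CPM in 4 stromal classes, for every gene with at least 50 UMIs in the class, on a log axis. Points are ratios, bars 95% counting intervals, dotted lines 1.5-fold in either direction, and red marks genes past it. In adipogenic CAR-like cells 16 of 45 genes are lower and 1 is higher.

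In osteogenic CAR-like cells 30 genes were measured, of which 3 were higher and 8 lower, against 5.99% and 8.71% of all genes. Adamts5 (ratio 0.582), Adamts15 (0.229), Timp4 (0.400), Adamtsl3 (0.473), Adamts4, Adam12 and Mmp17 were lower here too, and Mmp23 (0.643) as well. Mmp13 had a ratio of 1.00 (0.979 to 1.03). The higher genes were Mmp9 (3.88), which rests on few cells, Mmp16 (1.75, from 31 chase and 27 pulse UMIs) and Mmp11 (1.62).

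Below the CAR gate 26 genes were measured, with 3 higher and 3 lower, against 7.03% and 7.82% of all genes. Mmp13 had a ratio of 2.40 (2.35 to 2.45), Timp3 of 1.56 (1.46 to 1.68) and Mmp9 of 2.08. With a stricter marker gate Mmp9 was lower here in the chase library, at a log2 ratio of -1.05. Adam19, Adamts14 and Mmp17 were lower. In osteoblast-like cells 28 genes were measured, with 3 higher and 6 lower, against 7.32% and 4.16% of all genes. Adamts18 had a ratio of 2.56, Adamts9 of 2.03 (1.74 to 2.38) and Adam12 of 1.59. Mmp13 had a ratio of 0.636 there, and Mmp9, Mmp8, Adamts4, Adamts14 and Adam19 were also lower. For 5 of these 6 lower genes the interval lay below 1.

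The stromal classes of the libraries also differed in 6 immediate early genes, which handling of cells can induce. Their sum stood at 24168 CPM in chase and 17727 CPM in pulse adipogenic CAR-like cells, and at 14902 CPM (chase) and 9286 CPM (pulse) in osteogenic ones. Mitochondrial UMIs made up 3.27% in chase and 3.24% in pulse adipogenic CAR-like cells, 4.76% (chase) and 4.10% (pulse) in osteogenic ones, 5.33% (chase) and 4.67% (pulse) below the CAR gate, and 4.15% (chase) and 3.02% (pulse) in osteoblast-like cells. Ribosomal protein genes made up 12.5% in chase and 16.3% in pulse cells below the CAR gate, and were lower in the chase library in the other stromal classes too. The tdTomato reporter stood at 1422 CPM in chase and 414 CPM in pulse osteoblast-like cells. The part of these differences in the protease levels was not tested.

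Outside the stroma, 23 genes were measured in endothelial-like cells, with 0 higher and 5 lower in the chase library, against 4.5% and 3.68% of all genes. The lower ones were Adam19, Adamts2, Adamts4, Timp1 and Mmp9, with ratios between 0.443 and 0.661. For 4 of these 5 the interval lay below 1. In neutrophil-like cells 0 of 20 genes were higher and 9 lower, against 4.7% and 9.92% of all genes. Adam8 had a ratio of 0.547, and the others were Mmp2, Mmp13, Mmp14, Adamts2, Adamts5, Timp1, Timp2 and Timp3. In macrophage-like cells 2 of 26 genes were higher and 9 lower, against 3.74% and 6.77% of all genes. The higher genes were Adam8 and Mmp12, the second with a ratio of 8.64 that rests on 14 chase and 3 pulse cells. The lower ones included Mmp13 and Timp1. The interval left out a ratio of 1 for 1 of the 2 higher and 8 of the 9 lower genes. With a stricter gate the log2 ratio of Adamts2 in endothelial-like cells turned to 0.071, and those of Adam8, Mmp13 and Timp1 in macrophage-like cells to -0.081, 0.029 and 0.063. Mmp13 was also lower in the chase library in T or NK-like cells, by the levels given above, and the part of free RNA in the blood classes was not tested.

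The next comparison set osteogenic against adipogenic CAR-like cells within each library. In the chase library 12 of 38 genes were higher and 10 lower in osteogenic cells, against 7.0% and 8.88% of all genes. In the pulse library 11 of 44 were higher and 7 lower, against 7.73% and 6.52%. For 8 of the 10 lower genes in the chase and 6 of the 7 in the pulse library the interval lay below 1. In both libraries Mmp13, Mmp2, Mmp14, Mmp16, Adamts5, Timp1 and Timp3 were higher, and Adamts1, Adamts3, Adamts4, Adamtsl1, Adamtsl3, Adamtsl5 and Timp4 lower. No protease or TIMP gene was past the fold in opposite directions in the 2 libraries.

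Mmp13 had an osteogenic over adipogenic ratio of 5.67 in the chase (5.53 to 5.81) and 2.68 in the pulse library (2.63 to 2.73). As the levels above show, its osteogenic levels lay close together and its adipogenic level was lower in the chase library. Mmp2 had a ratio of 5.86 in the chase (5.08 to 6.76) and 4.56 in the pulse library (4.08 to 5.10). Timp3 had 3.42 (chase) and 2.86 (pulse), and Timp1 2.84 (chase) and 1.98 (pulse). Among the lower genes Timp4 had a ratio of 0.292 in the chase and 0.339 in the pulse library, and Adamts1 of 0.479 (chase) and 0.427 (pulse). Adamtsl1 had 1 chase and 5 pulse UMIs in osteogenic cells, so its direction rests on few counts. With a stricter gate, which left 36 chase and 15 pulse osteogenic CAR-like cells, the log2 ratios of Timp1 (-0.64) and Adamtsl5 (0.15) in the chase and of Adamts3 (0.44) in the pulse library turned round.

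**Figure D5:**
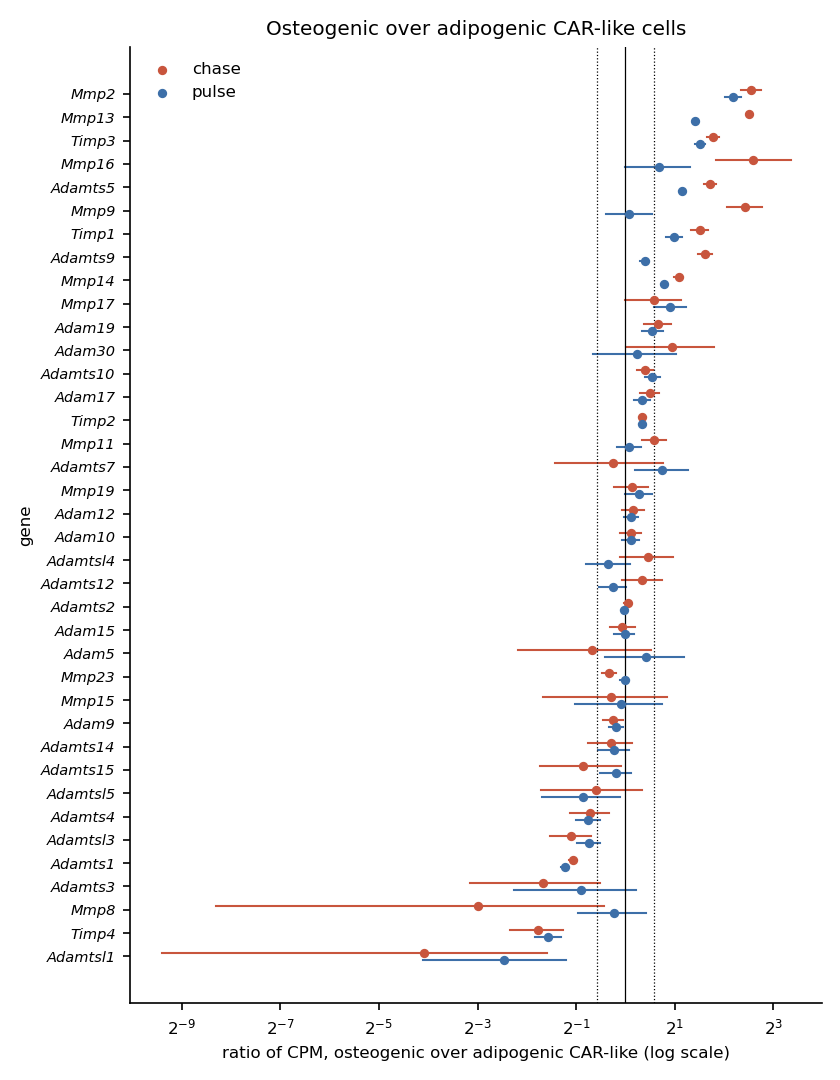
Osteogenic over adipogenic CAR-like ratio of CPM on a log axis for the 38 genes measured in both libraries, with chase in red and pulse in blue. Bars are 95% counting intervals and dotted lines mark 1.5-fold. Mmp2 stands at 5.86 in the chase and 4.56 in the pulse library, and Timp4 at 0.292 (chase) and 0.339 (pulse).

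Osteogenic-marker cells below the CAR gate were then set against osteogenic CAR-like cells, a comparison chosen after values had been seen. In the chase library 8 of 27 genes were higher and 5 lower, against 8.09% and 12.9% of all genes. In the pulse library 6 of 33 were higher and 11 lower, against 6.72% and 12.5%. Mmp16, Mmp2, Mmp9, Timp1 and Timp3 were higher in both libraries, and Adamts1, Adam19, Adamtsl3 and Mmp11 lower in both. The call for Mmp9 rests on few cells, as given above, and with a stricter gate its chase log2 ratio turned to -1.03. Timp1 had a ratio of 6.48 in the chase (5.82 to 7.23) and 10.7 in the pulse library (9.67 to 11.8). Mmp13 had 2.94 in the chase (2.88 to 3.01) and 1.23 in the pulse library (1.20 to 1.25), so it passed the fold in the chase library only.

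Osteoblast-like over osteogenic CAR-like cells shifted most genes down. The median log2 ratio of all genes was -0.83 in the chase and -0.99 in the pulse library, and 64.7% (chase) and 71.6% (pulse) of all genes were lower. The 20 of 27 protease and TIMP genes lower in the chase and 26 of 33 lower in the pulse library are shares near that background, but the median log2 ratio of these genes lay further down, at -1.38 in the chase and -1.97 in the pulse library. With median-of-ratios scaling in place of class totals, 7 were higher and 13 lower in the chase, and 6 higher and 18 lower in the pulse library. Their median log2 ratio was then -0.54 (chase) and -0.98 (pulse). Against 6.93% (chase) and 6.64% (pulse) of all genes, 4 of these genes were higher in the chase and 3 in the pulse library, of which Mmp16, Mmp2 and Timp1 were higher in both. Mmp16 had a ratio of 19.6 in the chase (13.7 to 29.0) and 29.0 in the pulse library (19.9 to 44.2), and Mmp2 of 5.18 (chase) and 4.56 (pulse). Under that scaling Adam15 turned round in both libraries, at log2 ratios of 0.069 (chase) and 0.23 (pulse), as did Mmp9, Mmp23, Adam12 and Adamts14 in the pulse library. Mmp13 stood far below the shift, with 0.0660 in the chase and 0.104 in the pulse library.

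Genes that work with these families were read from 6 lists in adipogenic CAR-like cells, chase over pulse, with gate markers left out of the counts, where 7.39% of all genes were higher and 6.67% lower. Of 13 measured activators and inhibitors of matrix metalloproteinases, 0 were higher and 2 lower: the lower ones were Plat, a plasminogen activator, and Thbs2, a thrombospondin that binds Mmp2. Thbs2 stood at 41.5 CPM in chase and 74.5 CPM in pulse cells. Of 23 measured substrates of ADAM sheddases, 5 were higher and 2 lower. Icam1, an adhesion molecule, stood at 278 CPM in chase and 81.4 CPM in pulse cells, and Tnfsf11, the osteoclast factor RANKL, at 75.6 CPM in chase and 331 CPM in pulse cells. Of 10 measured regulators of ADAM sheddases, 1 was higher and 1 lower.

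Matrix substrates stood lower in the chase library more often than higher. Of 15 measured proteoglycan and fibrillar substrates 2 were higher and 5 lower, with a median log2 ratio of -0.33 against -0.02 for all genes. Versican (Vcan), a proteoglycan that Adamts1, Adamts5 and Adamts9 cut, stood at 30.03 CPM in chase and 64.8 CPM in pulse cells. Type III collagen (Col3a1) stood at 53.2 CPM in chase and 100.3 CPM in pulse cells. Of 13 measured microfibril and ADAMTSL partners 1 was higher and 3 were lower, among them fibrillin 1 (Fbn1) at 643 CPM in chase and 1109 CPM in pulse cells. Of 5 measured other metzincin proteases 0 were higher and 2 were lower, among them Bmp1, the procollagen C-proteinase, at 139 CPM in chase and 216 CPM in pulse cells.

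Between osteogenic and adipogenic CAR-like cells 6 of 14 proteoglycan and fibrillar substrates were higher and 2 lower in the chase library, against 7.0% and 8.88% of all genes. In the pulse library 6 of 14 were higher and 2 lower, against 7.73% and 6.52%. The counts match, but not all genes do. Comp was higher in the chase and lower in the pulse library, and Vwf was lower in the chase and higher in the pulse library. These counts leave out 4 gate markers, a choice made after the data were seen; with them the median log2 ratio of the list was 0.46 (chase) and 0.36 (pulse), and without them -0.07 (chase) and 0.33 (pulse). Lumican (Lum), a collagen-binding proteoglycan, had a ratio of 14.4 in the chase and 3.61 in the pulse library, and Bmp1 of 1.61 (chase) and 1.65 (pulse). Like Mmp13 and Mmp2, both were thus higher in osteogenic cells of both libraries.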

How the data were processed

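The deposited files are 2 matrices of whole-number UMI counts (genes by barcodes), made from 10x Genomics 3 prime version 3.1 libraries per the labels' protocols; the authors did not normalise them. The file headers name Cell Ranger 6.0.2 and the submitters' processing notes name 2.1.1 and mm10. Whether counting used strand is not stated there. Barcodes with at least 1000 UMIs, at least 500 genes and under 10% mitochondrial UMIs were kept (84.1% of chase, 88.5% of pulse). Positions follow GENCODE vM21.

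Each class's score was the mean log2(1 + UMIs per 10000) of its markers. A cell passed at or above the mean score of the 30 highest cells less 50% of it, with a score of at least 1 and at least 3 markers detected. Cells passing gates of several compartments were left out (353 chase, 393 pulse). This rule was set after marker scores had been seen, and 271 kept cells lay within 10% below and 341 within 10% above the CAR cut. Doublets were not removed; Scrublet, in scanpy 1.11.5, marked 110 chase and 178 pulse cells, and their removal was an alternative.

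UMIs were summed per class and library. Ratios of CPM carry exact conditional intervals, and log2 values a prior count of 0.5. Gate markers were left out of the shares over all genes. Named genes had at least 20 CPM in a CAR-like or osteoblast-like class or passed the chase over pulse fold there, with up to 3 for each other class. The calculation was tested on simulated data. The members, lists, score bins and the class below the CAR gate were chosen with earlier results of these data known. Python 3.11.15, numpy 2.4.6, scipy 1.17.1 and pandas 2.3.3 were used.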

Additional observations from a re-analysis of the deposited data

Results flagged for a closer look

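The ratios of 5 genes ran in opposite directions in different stromal classes, each past 1.5-fold. The differences between classes were not tested, since each group has 1 library. Mmp13 had a chase over pulse ratio of 2.40 in osteogenic-marker cells below the CAR gate, 0.473 in adipogenic CAR-like cells and 0.636 in osteoblast-like cells. The osteoblast-like value rests on few cells, as 93.4% of chase UMIs lay in 35 of 349 cells and 92.8% of pulse UMIs in 45 of 442. The part of free RNA in it was not tested. Mmp9 had ratios of 3.88 in osteogenic CAR-like cells and 2.08 below the CAR gate, against 0.270 in osteoblast-like cells, and rests on few cells in each. Adamts9 had a ratio of 2.03 in osteoblast-like and 0.321 in adipogenic CAR-like cells. Adam12 had ratios of 1.59 in osteoblast-like cells, 0.641 in osteogenic and 0.623 in adipogenic CAR-like cells. Mmp16 had ratios of 1.75 in osteogenic and 0.463 in adipogenic CAR-like cells, both from low levels. The first had an interval of 1.01 to 3.05, from 31 chase and 27 pulse UMIs. In adipogenic cells Mmp16 stood at 1.37 (chase) and 2.97 (pulse) CPM.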

How the results depend on the processing

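The alternatives were a stricter gate, a minimum of 20 UMIs, removal of Scrublet doublets, median-of-ratios size factors, at least 2000 UMIs per cell, and totals without mitochondrial and ribosomal genes. The last pair moved no summary count or median beyond its limit. The stricter gate, at 1 log2 unit above the main one, left 36 chase and 15 pulse osteogenic CAR-like cells. Under it, chase over pulse gave 2 higher genes in adipogenic CAR-like cells, 2 lower in osteogenic CAR-like cells, and 5 higher and 3 lower in osteoblast-like cells. Osteogenic over adipogenic gave 16 lower in the pulse library, and osteoblast-like over osteogenic gave 12 lower in the chase (median log2 -1.02) and 15 lower in the pulse library. Chase over pulse log2 ratios reversed to -1.05 for Mmp9 below the CAR gate, 0.071 for Adamts2 in endothelial-like cells, and -0.081 for Adam8, 0.029 for Mmp13 and 0.063 for Timp1 in macrophage-like cells. Osteogenic over adipogenic reversed in the chase library for Mmp8 (2.70), Adamts15 (0.73), Adamtsl5 (0.15) and Timp1 (-0.64), and in the pulse library for Adamts3 (0.44). Below the CAR gate over osteogenic reversed for Mmp9 (-1.03) and Adamts14 (0.33) in the chase library, and osteoblast-like over osteogenic for Adamts14 (0.023) in the chase and Mmp9 (0.47) in the pulse library. The minimum of 20 UMIs tests more genes: it gave 2 higher in adipogenic CAR-like, 13 lower in osteogenic CAR-like and 11 lower in osteoblast-like cells for chase over pulse, and for osteoblast-like over osteogenic 7 higher in the chase and 6 higher in the pulse library (median log2 -1.34). Without Scrublet doublets 5 genes were higher in osteoblast-like cells. Size factors gave, for osteoblast-like over osteogenic, 7 higher and 13 lower in the chase (median log2 -0.54) and 6 higher in the pulse library (median log2 -0.98). They reversed Adam15 (0.069) in the chase, and Mmp9 (0.16), Adam15 (0.23), Mmp23 (0.32), Adam12 (0.20) and Adamts14 (0.057) in the pulse library. Mmp13 shares without thinning were 62.5% (chase) and 83.5% (pulse) in adipogenic CAR-like cells, 90.4% (chase) and 93.4% (pulse) in osteogenic ones, and 88.7% in pulse cells below the CAR gate. With at least 2 UMIs, the pulse shares were 72.6%, 90.2% and 80.3% in the same classes. The cause of each other move was not tested. In all, 110 summary values kept their side and 28 moved; of the values for single genes 1071 kept theirs, 149 moved and 20 reversed. No paired analysis was possible because each group has 1 library, and for the same reason no replicate could be left out.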
